A study of Mus musculus with 33 samples.

Results

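The complement components and receptors on the panel were the probes for C3, C1qa, C1qb, C1qbp, C3ar1, Cfb, Cfp and Cfd, 8 of the 750 endogenous probes, taken by name, a choice made with earlier results of these data known. They were followed across all 13 groups of bone marrow (BM) RNA from female C57BL/6 mice of 6 to 8 weeks, 33 lanes of the NanoString nCounter in all. Mice had received the BCL2 inhibitor venetoclax (100 mg/kg once daily) or the JAK1/2 inhibitor ruxolitinib (180 mg/kg 2 times daily) by oral gavage for 2 days, and marrow was taken 1, 3 or 7 days later (n = 3 for each drug and day). Each drug had its own vehicle on each day (n = 2), phosal 50 PG with PEG 400 and ethanol for venetoclax and DMSO with PEG 300 in water for ruxolitinib, and 3 mice were untreated. Within groups the labels number replicates without naming the animal, so the p-values measure the spread between these samples. Lanes fell into 3 sets by a day tag in the header of their counts, and these sets are called runs here. The tag names a day and not an instrument run. Day and run coincided: all day 1 lanes were in run 1, all day 3 lanes in run 2 and all day 7 lanes in run 3. Each run held 1 untreated mouse. The tag of run 2 reads day 2 where the sample labels read day 3, and the labels were followed. Values are normalised counts, the barcode count of a probe divided by the lane's scaling factor from the housekeeping probes. Each probe binds with its own efficiency, so a count was compared between mice and not between genes.

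Complement is a cascade of plasma and cell surface proteins that tags targets for phagocytosis, recruits leukocytes and lyses membranes. The classical pathway starts when C1q, built from A, B and C chains and made largely by macrophages and dendritic cells, binds antibody or other ligands. The alternative pathway runs through factor B, which factor D cleaves, and properdin, which stabilises the resulting convertase. Both pathways cleave C3, and its fragment C3a acts through the receptor C3ar1 on myeloid cells. C1qbp binds the globular heads of C1q, but most of the protein sits in the mitochondrial matrix.

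The members differed in how they behaved across runs. Windows around the start sites of 3 that were high together in run 3 (C1qb, C1qbp and Cfp) are shown, with that of C3, which was level. They were picked for the difference between runs that follows, and no link from motif to level was tested. RefSeq windows of 250 bases before to 50 after the start were matched by symbol for 6 of the 8 members (C3, C1qb, C1qbp, C3ar1, Cfp and Cfd). The printed sequences are from RefSeq on mouse build GRCm38.p6, read 5′ to 3′ on the gene's strand. Capitals mark matches on either strand to the TATA box letters, which are TATAAA, to TTGCNNAA (C/EBP), AGGAAG (ETS core) or TTCNNNGAA (GAS, the STAT motif).
C3, chr17:57228087-57228386, minus strand: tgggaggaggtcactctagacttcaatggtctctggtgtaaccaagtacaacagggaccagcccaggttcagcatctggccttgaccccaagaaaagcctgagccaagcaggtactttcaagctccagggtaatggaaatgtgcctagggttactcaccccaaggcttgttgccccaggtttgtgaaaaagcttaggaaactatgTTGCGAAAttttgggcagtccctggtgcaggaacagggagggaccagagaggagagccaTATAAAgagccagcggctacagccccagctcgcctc
C1qb, chr4:136886151-136886450, minus strand: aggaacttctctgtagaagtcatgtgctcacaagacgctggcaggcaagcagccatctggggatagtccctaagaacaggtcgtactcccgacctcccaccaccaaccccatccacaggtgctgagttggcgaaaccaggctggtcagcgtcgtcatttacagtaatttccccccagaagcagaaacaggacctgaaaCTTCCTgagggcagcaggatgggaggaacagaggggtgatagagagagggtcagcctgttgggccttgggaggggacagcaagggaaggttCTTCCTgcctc
C1qbp, chr11:70982977-70983276, minus strand: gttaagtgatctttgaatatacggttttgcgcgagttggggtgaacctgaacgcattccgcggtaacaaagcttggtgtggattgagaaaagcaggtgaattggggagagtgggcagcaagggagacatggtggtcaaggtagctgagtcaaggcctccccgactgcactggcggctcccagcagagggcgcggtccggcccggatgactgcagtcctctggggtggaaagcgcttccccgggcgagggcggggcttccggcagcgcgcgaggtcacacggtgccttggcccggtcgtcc
Cfp, chrX:20931506-20931805, minus strand: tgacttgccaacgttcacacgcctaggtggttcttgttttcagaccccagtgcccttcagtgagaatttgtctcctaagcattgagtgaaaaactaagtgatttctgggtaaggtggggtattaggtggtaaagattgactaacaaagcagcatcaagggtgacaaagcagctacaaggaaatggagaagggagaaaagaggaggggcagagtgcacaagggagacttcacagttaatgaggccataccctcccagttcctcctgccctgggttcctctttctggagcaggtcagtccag

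The C3 window held a C/EBP match beginning 45 bases before the start site and a TATA box match beginning 14 bases after it. C1qb held ETS core matches beginning 52 bases before and 39 bases after the start, and C1qbp and Cfp held none of the motifs. Of the windows not printed, that of C3ar1, which was not higher in run 3, also held an ETS core match, beginning 5 bases before the start. It held a TATA box match beginning 235 bases before the start as well, and the Cfd window held none of the motifs. No window of these 6 members held the GAS letters. No matches overlapped in these windows. Across 32817 windows of the same length, 13.6% held a TATA box match, 10.8% a C/EBP match, 35.4% an ETS core match and 8.29% a GAS match. C1qb and C1qa are neighbours on mouse chromosome 4, with C1qc between them.

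C3, C1qa, C1qb, C1qbp and Cfp were above background in 31 to 33 of the 33 lanes. Background was the mean plus 2 SD of a lane's 8 negative control probes. C3ar1 passed it in 24 lanes, Cfd in 3 and Cfb in 1. A gene was tested when at least 2 lanes passed, so 7 of the 8 members were among the 655 genes tested and Cfb was not. The mean normalised count over all lanes was 384 for C3, 34.7 for C1qa, 51.3 for C1qb, 139.7 for C1qbp, 7.69 for C3ar1, 52.1 for Cfp, 3.79 for Cfd and 2.03 for Cfb. These are probe signals and set no order of transcript abundance.

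The lanes held 18056 to 466096 endogenous counts (median 158944), and the shallowest were the first venetoclax mouse of day 1 and the first ruxolitinib mouse of day 3 (26881). Of the fixed markers on the panel, all 11 macrophage and monocyte, 8 neutrophil and granulocyte precursor, 8 B cell and 7 T cell genes passed the detection rule. The panel carried none of the 5 hepatocyte markers listed, and liver is the main source of plasma C3, factor B and C1 inhibitor in textbooks. In these bulk samples, fewer cells of a type and less RNA per cell cannot be told apart.

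**Figure D1:**
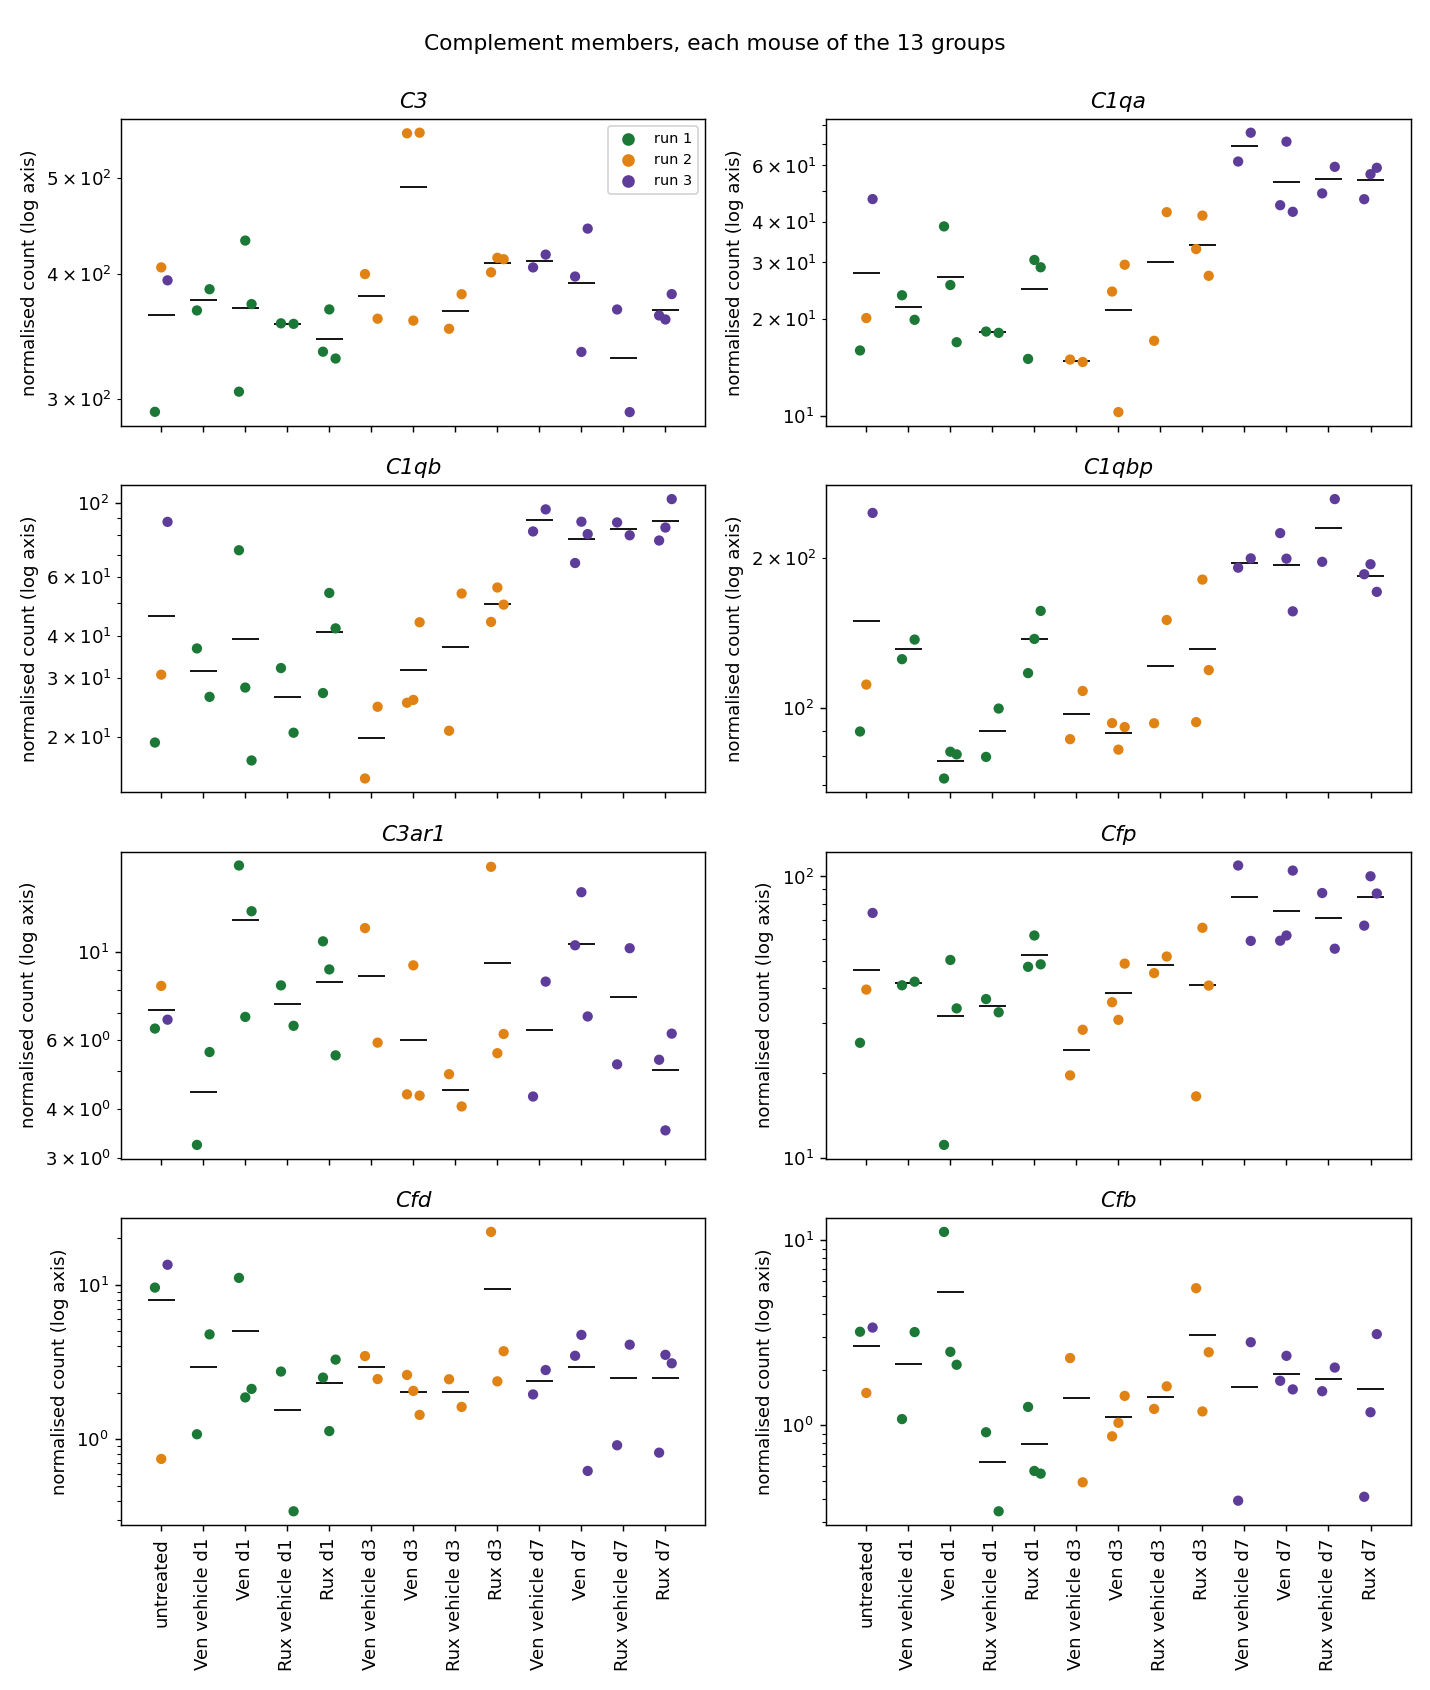
Normalised counts of the 8 complement probes in each of the 33 mice (log axes), by group, with the run as colour and a bar at the group mean; d1, d3 and d7 are days 1, 3 and 7. C1qa, C1qb, C1qbp and Cfp are highest in the day 7 groups of run 3, C3 stays between 291 and 554, and Cfd and Cfb lie mostly near or under background.

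Neither drug changed a complement member past the threshold on any day. In edgeR's quasi-likelihood test, 0 of the 7 tested members had an adjusted p under 0.05 for venetoclax against its vehicle on day 1 (0.153% of all 655 genes called), day 3 (0%) or day 7 (0.153%). The count was also 0 of 7 for ruxolitinib on day 1 (2.75% of all genes), day 3 (0.153%) and day 7 (0.153%), and for the mean of the 3 days of venetoclax (2.9%) and ruxolitinib (1.22%). At an unadjusted p under 0.05 the count was 1 member, C1qbp, on day 1 for each drug (10.4% of all genes with venetoclax and 13.6% with ruxolitinib, so 1 of 7 is near the background) and 0 in the other 6 comparisons, and DESeq2 and limma also called 0. The median log2 fold change of the members was -0.01, 0.37 and -0.16 for venetoclax on days 1, 3 and 7, against -0.02, 0.06 and -0.01 over all genes tested. For ruxolitinib it was 0.60, 0.19 and 0.02, against 0.13, 0.02 and 0.02 over all genes. On ruxolitinib day 1 the median was also 0.60 for the 8 neutrophil and granulocyte precursor, 0.51 for the 11 macrophage and monocyte and 1.51 for the 6 stroma and adipocyte markers. Of those 6, Col3a1, Pdgfrb and Pparg were above background in only 2, 3 and 13 lanes. The other medians were 0.45 (T cell), 0.21 (stem and progenitor), 0.10 (endothelium), 0.08 (B cell) and -0.73 (NK cell). On venetoclax day 3 the neutrophil, macrophage and stroma lists had medians of 0.93, 0.26 and 0.76. Those of the 7 T cell and 8 B cell markers were -0.996 and -0.28 there. The NK cell, stem and progenitor and endothelium lists had 0.46, 0.54 and -0.05. The part of these markers in the members' values was not tested.

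**Figure D2:**
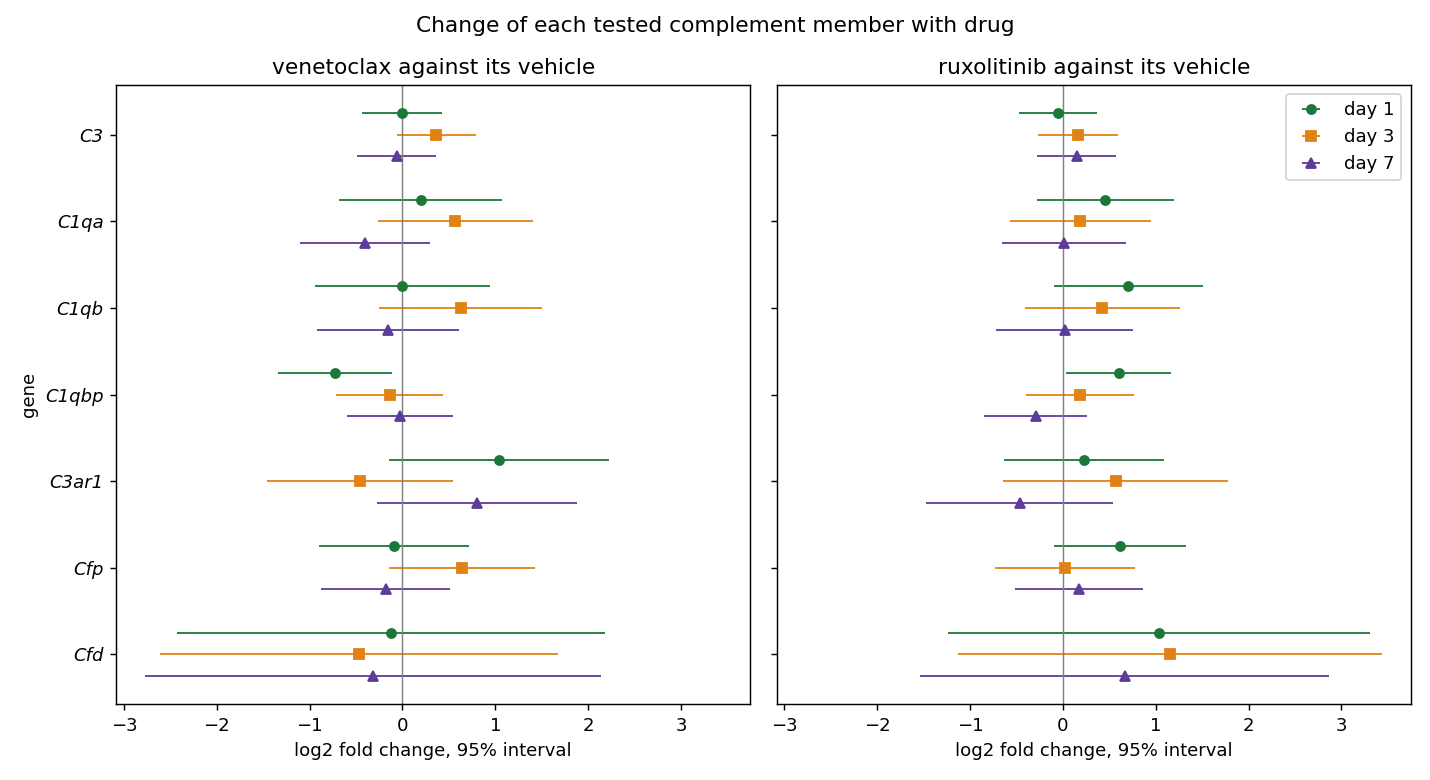
Log2 fold change of the 7 tested members against the drug's own vehicle on days 1, 3 and 7, with 95% intervals (3 mice against 2). Most intervals cross 0; those of C1qbp on day 1 lie below 0 for venetoclax and above 0 for ruxolitinib, and those of Cfd are the widest.

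C1qbp, the C1q-binding mitochondrial protein, had the smallest p-values of the members in the comparisons of drug with vehicle, and they were on day 1. The 2 mice given venetoclax vehicle had 125 and 137 normalised counts and the 3 given venetoclax had 72.1, 81.6 and 80.6. All treated mice were lower than both vehicle mice, a separation also seen, in either direction, for 27.5% of all genes in that comparison. The difference did not pass the adjusted threshold (log2 fold change -0.72, SE 0.30, adjusted p = 0.353, unadjusted p = 0.0216, 95% interval -1.34 to -0.11). With ruxolitinib the order was the other way round: 117, 137 and 156 in treated mice against 79.7 and 99.6 in vehicle mice. All 3 were higher than both vehicle mice, and 44% of all genes had groups that did not overlap there (log2 fold change 0.60, SE 0.28, adjusted p = 0.333, unadjusted p = 0.038, 95% interval 0.03 to 1.17).

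The 2 vehicle groups of day 1 were themselves apart for C1qbp, with both venetoclax vehicle mice above both ruxolitinib vehicle mice, and the untreated mouse of that run was at 89.6. The venetoclax change minus the ruxolitinib change on day 1 was -1.33 (SE 0.41, 95% interval -2.16 to -0.49), with an adjusted p = 0.0914 that missed the threshold. On day 3 C1qbp was 93.1, 82.4 and 91.4 with venetoclax against 86.5 and 108 with its vehicle, and 93.6, 181 and 119 with ruxolitinib against 93.1 and 150.0. These groups overlapped. On day 7 the counts were 224, 199 and 156 with venetoclax against 191 and 199, and 185, 194 and 171 with ruxolitinib against 196 and 262. All 3 ruxolitinib mice were then under both vehicle mice (log2 fold change -0.29, SE 0.27, adjusted p = 0.999, and -0.51 to -0.09 without 1 mouse), a separation that 17.7% of all genes showed. Between days 7 and 1 the ruxolitinib change differed by -0.89 (SE 0.39, adjusted p = 0.418) and the venetoclax change by 0.70 (SE 0.41, adjusted p = 0.914). Over the 3 days C1qbp averaged -0.30 (SE 0.17) with venetoclax and 0.16 (SE 0.16) with ruxolitinib. Without 1 mouse these means were -0.34 to -0.24 and 0.05 to 0.30.

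The call for C1qbp on day 1 depended on how the spread was estimated. In a fit of only the groups compared C1qbp passed for ruxolitinib (log2 fold change 0.59, adjusted p = 0.0219) and for the difference between the drugs (-1.31, adjusted p = 0.00185). Those fits called 77 and 61 of all 655 genes, against 18 and 11 in the fit of all groups. Against the 3 untreated mice in place of vehicle, the ruxolitinib value of day 1 was -0.07 (adjusted p = 0.983), but those mice came from 3 runs and had 89.6, 111 and 246, and all 3 ruxolitinib mice were above the untreated mouse of their own run.

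C1qa and C1qb, 2 of the 3 chains of C1q, moved together across mice. On day 1, C1qa was 15.1, 30.5 and 28.99 with ruxolitinib against 18.3 and 18.1 with its vehicle, and C1qb was 26.99, 53.7 and 42.1 against 32.1 and 20.5. The same ruxolitinib mouse was the lowest for both chains and the groups overlapped for both. The log2 fold changes were 0.46 (SE 0.36, adjusted p = 0.626) for C1qa and 0.70 (SE 0.39, adjusted p = 0.46) for C1qb. Without 1 mouse they were 0.29 to 0.71 and 0.36 to 0.997. With venetoclax on day 1, C1qa was 38.8, 25.5 and 16.97 against 23.7 and 19.9 and C1qb was 72.1, 28.03 and 16.97 against 36.7 and 26.3. The highest of these, in the shallowest lane, rested on 7 counts of C1qa and 13 of C1qb.

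On day 3 the treated means of both chains lay above those of vehicle for both drugs. With venetoclax C1qa was 24.4, 10.3 and 29.5 against 14.99 and 14.7, with 1 treated mouse under both vehicle mice. C1qb was 25.2, 25.7 and 43.9 against 14.99 and 24.6, with all treated mice above both vehicle mice, and 26.1% of all genes had groups that did not overlap there. Neither passed (C1qa 0.57, SE 0.41, adjusted p = 0.672; C1qb 0.63, SE 0.43, adjusted p = 0.649), and without 1 mouse they were 0.25 to 0.86 and 0.29 to 1.09. With ruxolitinib C1qa was 33.02, 41.9 and 27.3 against 17.1 and 42.98 and C1qb was 44.03, 55.8 and 49.6 against 20.8 and 53.5. Here 1 vehicle mouse was as high as the treated mice for both chains and the other was lower.

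On day 7 both chains were high in treated and vehicle mice alike. C1qa was 45.2, 71.1 and 43.1 with venetoclax against 61.7 and 75.8 with its vehicle (log2 fold change -0.40, SE 0.34, adjusted p = 0.999, and -0.60 to -0.22 without 1 mouse). With ruxolitinib it was 47.2, 56.4 and 59.02 against 49.1 and 59.4. C1qb was 66.02, 87.7 and 80.6 with venetoclax against 82.04 and 95.5, and 77.1, 84.3 and 103 with ruxolitinib against 87.3 and 79.9. The groups of the day overlapped for both chains and both drugs. The mean ruxolitinib change of C1qb over the 3 days was 0.38 (SE 0.22, 95% interval -0.08 to 0.84, adjusted p = 0.551), and 0.23 to 0.68 when 1 mouse was left out. With untreated mice in place of vehicle, 1 member passed on ruxolitinib day 7, C1qa (log2 fold change 1.09, adjusted p = 0.0437), but that setting called 87 of all 655 genes, and only 1 of those 3 untreated mice was in run 3.

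C3, the protein on which the pathways converge, varied little. Its 33 values ran from 291 to 554 with a median of 373, and its group means differed by at most 1.48-fold, from 329.9 with ruxolitinib vehicle on day 7 to 489 with venetoclax on day 3. In order of mean, each of the 12 pairs of neighbouring groups overlapped. The highest values were in 2 of the 3 venetoclax mice of day 3: 554, 359 and 554, against 400.1 and 361 with vehicle (log2 fold change 0.37, SE 0.21, adjusted p = 0.528, 95% interval -0.06 to 0.79). The third mouse was under both vehicle mice. On day 1, C3 was 305, 432 and 373 with venetoclax and 335, 369 and 329 with ruxolitinib, and on day 7 it was 398, 334 and 444 and 364, 360.3 and 382. The vehicle mice of these days were at 368 and 386 and 406 and 419 for venetoclax, and at 357 and 357 and 369 and 291 for ruxolitinib. All these groups overlapped. On day 3 the ruxolitinib mice (402, 415 and 414) were all above both vehicle mice (353 and 382), a separation held by 15.6% of all genes, and the change had an adjusted p = 0.998.

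C3ar1, the receptor for C3a, had few counts. With venetoclax on day 1 it was 16.6, 6.85 and 12.7 normalised counts against 3.24 and 5.58 with vehicle, from raw counts of 3, 11 and 6 against 3 and 7. All treated mice were higher, where 27.5% of all genes had groups that did not overlap, and the highest value rested on 3 counts in the shallowest lane (log2 fold change 1.04, SE 0.58, adjusted p = 0.551). On day 7 it was 10.4, 14.2 and 6.87 with venetoclax against 4.30 and 8.43 (log2 fold change 0.81, SE 0.53, adjusted p = 0.999), and 5.33, 3.52 and 6.21 with ruxolitinib against 5.19 and 10.2 (log2 fold change -0.46, SE 0.50, adjusted p = 0.999, and -1.18 to -0.19 without 1 mouse). Groups overlapped in both, and 17.3% of all genes had groups without overlap for venetoclax on day 7. The drugs' changes on day 7 differed by 1.27 (SE 0.73, 95% interval -0.21 to 2.75, adjusted p = 0.998). Without 1 mouse that difference was 0.53 to 1.98 and the venetoclax change 0.06 to 1.26. On day 3 the venetoclax mean of C3ar1 was under that of vehicle, with 4.35, 9.27 and 4.32 against 11.5 and 5.89, overlapping. With ruxolitinib on day 1 C3ar1 was 10.7, 9.05 and 5.47 against 8.24 and 6.50, also overlapping. With ruxolitinib on day 3 it was 16.5, 5.54 and 6.20 against 4.90 and 4.05, the highest again from 3 counts in a shallow lane. All treated mice were higher, where 15.6% of all genes had groups that did not overlap, and the change did not pass (log2 fold change 0.57, SE 0.60, adjusted p = 0.998).

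Cfp, properdin, which stabilises the alternative pathway convertase and is carried by neutrophils and monocytes, was 47.7, 61.7 and 48.7 with ruxolitinib on day 1 against 36.6 and 32.9 with vehicle. All 3 treated mice were higher, where 44% of all genes had groups that did not overlap, and the test did not pass (log2 fold change 0.61, SE 0.35, adjusted p = 0.47, 95% interval -0.10 to 1.32). In a fit of these groups alone, which called 77 of all 655 genes, it did (0.62, adjusted p = 0.0389). With venetoclax on day 3 all treated mice were again higher, 35.7, 30.9 and 48.96 against 19.6 and 28.5 (log2 fold change 0.64, SE 0.39, adjusted p = 0.555), where 26.1% of all genes had groups that did not overlap. With venetoclax on day 1 it was 11.1, 50.5 and 33.9 against 41 and 42.2, where the lowest value stood for 2 counts in the shallowest lane. With ruxolitinib on day 3 it was 16.5, 65.7 and 40.9 against 45.3 and 51.9, and the lowest value again belonged to the shallow lane of that group, with 3 counts. On day 7 the 2 drugs gave 59.1, 61.6 and 105 and 66.8, 100.1 and 86.97, and their vehicles 109 and 58.99 and 87.3 and 55.3, all overlapping.

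The other alternative pathway genes were at the limit of detection. Cfd, factor D, known in adipose tissue as adipsin, had raw counts of 1 to 12 and was above background in 3 lanes. Its normalised counts were highest in a ruxolitinib mouse of day 3 (22.01, from 4 counts in a shallow lane) and in the untreated mouse of run 3 (13.5, from 4 counts). Cfb, the factor that supplies the protease of the convertase, had raw counts of 1 to 5. No order of groups was read from either gene. The 95% intervals of the Cfd change were wide, for example -1.13 to 3.43 with ruxolitinib on day 3.

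No member passed the threshold when the changes were compared between the 2 drugs or between days 7 and 1, nor between vehicle and untreated mice or between the vehicles. The venetoclax change minus the ruxolitinib change passed for 0 of 7 members on day 1 (1.68% of all genes), day 3 (0.153%) and day 7 (0.305%). The change on day 7 minus that on day 1 passed for 0 of 7 members with venetoclax (0%) and 0 with ruxolitinib (1.53%). Untreated mice set against the average of all 6 vehicle groups also gave 0 (0% of all genes), as did ruxolitinib vehicle against venetoclax vehicle (0%). At an unadjusted p under 0.05 C1qbp was the one member on day 1 between the drugs (13.4% of all genes) and the one between days for ruxolitinib (9.62% of all genes), and no member reached it in the other 5 comparisons. DESeq2 and limma called 0 in all 7. These comparisons use the same drug and vehicle mice as those of each drug alone.

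C1qa, C1qb, C1qbp and Cfp were higher in run 3 than in the earlier runs. In run 3, C1qa was 43.1 to 75.8 with a median of 56.4, against 15.1 to 38.8 with a median of 19.9 in run 1 and 10.3 to 42.98 with a median of 24.4 in run 2 (n = 11 each). C1qb was 66.02 to 103 with a median of 84.3 in run 3, 16.97 to 72.1 with a median of 28.03 in run 1 and 14.99 to 55.8 with a median of 30.6 in run 2. For C1qa every mouse of run 3 was above every mouse of runs 1 and 2, though the nearest pair was 43.10 against 42.98, and for C1qb a single mouse of run 1, in the shallowest lane, reached into the range of run 3. C1qbp was 156 to 262 with a median of 196 in run 3, 72.1 to 156 with a median of 99.6 in run 1 and 82.4 to 181 with a median of 93.6 in run 2. Cfp was 55.3 to 109 with a median of 74.2, 11.1 to 61.7 with a median of 41 and 16.5 to 65.7 with a median of 39.6 in runs 3, 1 and 2. For each of these 4 genes the 4 groups with the highest means were the 4 groups of day 7.

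The untreated mouse of run 3 was also the highest of the 3 untreated mice for these genes. In runs 1, 2 and 3 the single untreated mouse had 16, 20.2 and 47.2 normalised counts of C1qa and 19.2, 30.6 and 87.6 of C1qb. It had 89.6, 111 and 246 of C1qbp and 25.6, 39.6 and 74.2 of Cfp. In run 1 the C1qa and C1qb values stood for 5 and 6 raw counts, under that lane's background of 7.47. For C3 the 3 mice had 291, 406 and 394, and for C3ar1 6.40, 8.22 and 6.74, with no such order. Each run held a single untreated mouse, and for the treated and vehicle groups day and run cannot be told apart.

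**Figure D3:**
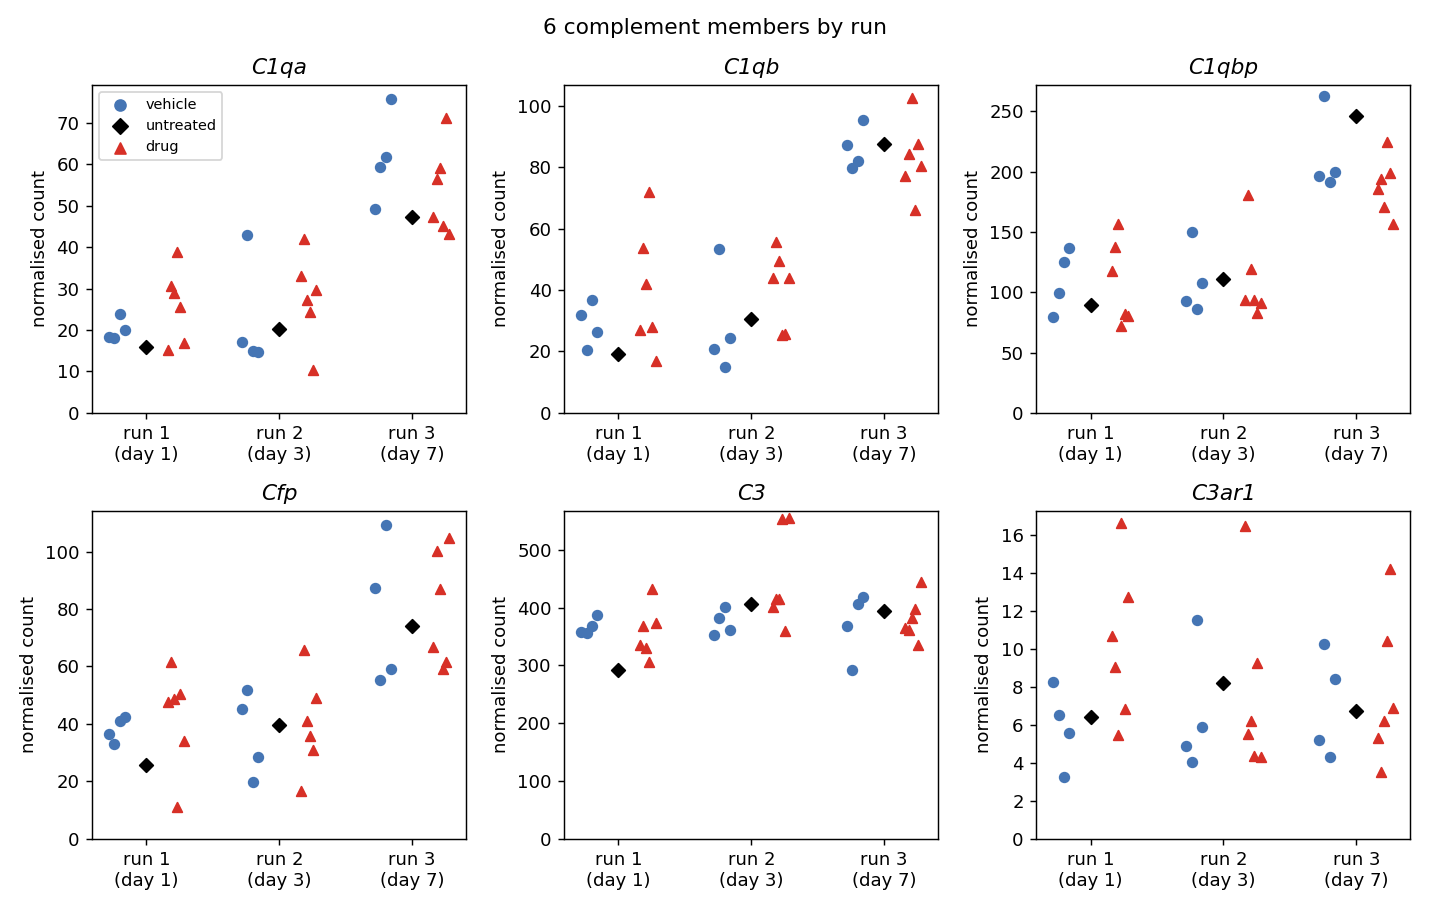
Normalised counts (linear axes from 0) of 6 members by run, which coincides with the day, for vehicle mice (circles, 4 a run), the untreated mouse (diamond) and drug-treated mice (triangles, 6 a run). C1qa, C1qb, C1qbp and Cfp lie higher in run 3 in all 3 kinds of mice, and C3 and C3ar1 do not.

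A comparison chosen after these values were seen, the vehicle groups of day 7 against those of days 1 and 3, put a size on the difference (4 mice against 8). All mice of day 7 shared a single run, so its p-values measure the spread between mice within groups. They do not measure a spread between runs or days. C1qb was higher by 1.60 on the log2 scale (SE 0.25, adjusted p = 1.97e-05) and C1qa by 1.51 (SE 0.23, adjusted p = 1.51e-05). Cfp was higher by 1.18 (SE 0.23, adjusted p = 0.000181) and C1qbp by 0.94 (SE 0.18, adjusted p = 0.000181). C3 (-0.0015, SE 0.14, 95% interval -0.29 to 0.28) and C3ar1 (-0.06, SE 0.36, 95% interval -0.78 to 0.67) were not called, and neither was Cfd. That is 4 of 7 members, all higher, in a comparison that called 36.6% of all 655 genes (158 higher and 82 lower), so it is not particular to complement. The number of all genes called there, 240, depended on the processing. It was 104 with limma after background subtraction and 270 in a fit of only the groups compared.

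Other markers moved with it. Of the 11 macrophage and monocyte markers, 6 were called in the same comparison, all of them higher: Cd68 (1.29), Emr1 (1.12), Mrc1 (0.90), Cd163 (0.71), Msr1 (1.32) and Csf1r (0.39). The summed level of the 11 was 637 to 876 in run 3, against 492 to 677 in run 1 and 467 to 699 in run 2. All 8 neutrophil and granulocyte precursor markers were called, 6 higher, led by Elane (2.42) and Mpo (1.84), and 2 lower, S100a8 (-1.002) and Csf3r (-0.68). Their summed level had a median of 65042 in run 3, against 94968 in run 1 and 96046 in run 2. That sum is mostly S100a8, with a mean of 71726 over all lanes against 6359 for Camp, the next highest. Of the 8 B cell markers 6 were called, 3 higher and 3 lower (median of the 8, -0.52). Of the remaining lists, 2 of 3 stem and progenitor, 2 of 7 NK cell, 1 of 7 T cell, 1 of 6 stroma and adipocyte and 0 of 6 endothelium markers were called, those called being higher. The median endogenous total was 66683 in run 3, 176425 in run 1 and 147603 in run 2. Their part in the difference was not tested.

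Across the 33 mice, the profiles most like each well detected member were listed (Pearson r of log2 counts, described without a test). These r values include the difference between runs given above, so they are no separate evidence of it. The genes nearest to C1qb were Cd68 (0.96), a lysosomal protein of macrophages, C1qa (0.93) and Ly86 (0.93), which encodes MD-1. Those nearest to C1qa were C1qb, Cd68 (0.93) and Elane (0.91), neutrophil elastase. Within groups, after subtracting each group's mean, C1qa and C1qb still correlated at 0.82 and C1qb and Cd68 at 0.91. C1qbp was nearest to Cd164 (0.88), Ctss (0.85) and Yy1 (0.85), and Cfp to Clec7a (0.88), the beta-glucan receptor dectin-1, Ctss (0.85), cathepsin S, and Mmp9 (0.83). Within groups these values were lower, at 0.70, 0.75 and 0.65 for C1qbp and 0.79, 0.73 and 0.70 for Cfp, in the same order. C3 was nearest to Anxa1 (0.74), Ncf4 (0.68) and Ccr2 (0.58), and had an r of 0.06 with C1qa. C3ar1 was nearest to Klra20 (0.68), Marco (0.66) and Creb5 (0.66), at low counts. The mice share runs and lane depths, and the median r with all tested genes was between -0.01 and 0.19 for these members.

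**Figure D4:**
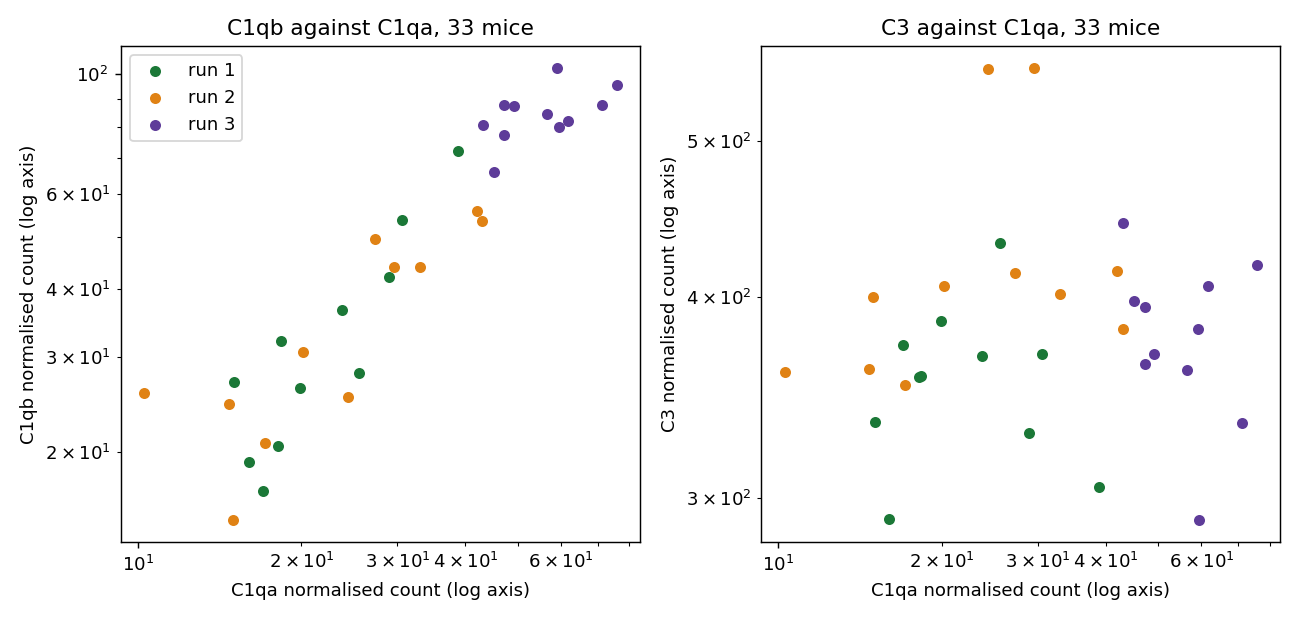
Normalised count of C1qb (left) and C3 (right) against that of C1qa in the 33 mice, log axes, coloured by run. C1qb follows C1qa over all runs (r = 0.93), with the mice of run 3 at the upper end, and C3 does not (r = 0.06).

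Of 50 further complement genes listed from textbook knowledge, 28 were on the panel and 19 were tested. Hc (C5), C7, C8b, Mbl2 and Colec12 were above background in no lane. With drug, 2 of the 19 were called in a comparison. Cd55, the membrane protein that speeds decay of C3 convertases, had 33.3, 28.7 and 36.1 normalised counts with venetoclax against 76.6 and 58.2 with its vehicle on day 1, 42.7, 40.2 and 41.8 against 86.5 and 59.4 on day 3 and 34.7, 26.1 and 50.3 against 65.2 and 73.03 on day 7. All treated mice were under both vehicle mice on each day, and 27.5%, 26.1% and 17.3% of all genes had groups that did not overlap. The untreated mice of runs 1, 2 and 3 had 35.2, 75.4 and 67.4, the first of them within the range of the venetoclax mice of day 1. The single days did not pass (log2 fold changes -1.08, -0.78 and -0.75, adjusted p = 0.0898, 0.311 and 0.832). Day 1 passed with both vehicles pooled (-1.12, adjusted p = 0.0267) and in a fit of only the groups compared (-1.09, adjusted p = 0.0282). Those settings called 25 and 19 of all 655 genes on day 1, against 1 in the reported fit. The mean of the 3 days passed (-0.87, SE 0.18, adjusted p = 0.00401), but not with untreated mice as control (-0.74, adjusted p = 0.122). That comparison called 19 genes, all lower, and from 6 to 26 genes under the alternatives. In it all 7 T cell markers (median -0.69, 2 called) and 7 of 8 B cell markers (median -0.25, 1 called) had negative values. Their part in the Cd55 value was not tested. With ruxolitinib Cd55 was 119, 69.01 and 77.1 against 72.3 and 68.1 on day 1, overlapping. The drugs' changes differed by -1.41 that day (venetoclax minus ruxolitinib, SE 0.44, adjusted p = 0.0914). On day 3 the ruxolitinib mice had 44.03, 41.5 and 66.9 against 86.9 and 44.6. The first and second treated mice were under both vehicle mice there, and the groups overlapped. On day 7 they had 45.9, 53.2 and 59.02 against 45.2 and 40.98, all higher, where 17.7% of all genes had groups that did not overlap. Cd55 was not called with ruxolitinib on any of these days.

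Clu, clusterin, which binds terminal complement complexes, was 16.9, 27.1 and 11.5 with ruxolitinib on day 1 against 8.24 and 5.48 with vehicle, all higher (log2 fold change 1.52, SE 0.43, adjusted p = 0.0426). In that comparison 44% of all genes had groups that did not overlap and 2.75% were called. All 6 stroma and adipocyte markers had positive values there (median 1.51, 1 called), and their part was not tested. Of those 6, Col3a1, Pdgfrb and Pparg were above background in only 2, 3 and 13 of the 33 lanes. The call of Clu was lost with DESeq2 (1.42, adjusted p = 0.172), with limma (1.26, adjusted p = 0.546), with limma after background subtraction (1.37, SE 0.92) and with untreated mice as control (1.25, adjusted p = 0.234). It was also lost without the first (1.58, adjusted p = 0.0593) or second (1.13, adjusted p = 0.272) ruxolitinib mouse, and without the first (1.74, adjusted p = 0.0846) or second (1.16, adjusted p = 0.736) vehicle mouse. The untreated mouse of run 1 had 12.8 of Clu, within the range of the ruxolitinib mice of day 1. On day 3 Clu was 5.50, 9.10 and 9.92 with ruxolitinib against 12.2 and 10.5. All treated mice were then lower, where 15.6% of all genes had groups that did not overlap. On day 7 Clu was 11.5, 12.3 and 34.2 against 13.7 and 14.3, overlapping. In the comparison of vehicle groups between runs, which called 36.6% of all genes, 2 of the 19 were called, both higher: C5ar1, the receptor for C5a (0.91, SE 0.21, adjusted p = 0.00117), and Itgb2, the beta chain of the C3 fragment receptors CR3 and CR4 (0.61, SE 0.15, adjusted p = 0.00187). Their alpha chains Itgam and Itgax were not called there.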

How the data were processed

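Total RNA from BM was hybridised to a NanoString mouse immune panel (named as PanCancer Immune Profiling in the methods and as immunology in the series text). The deposited values are raw barcode counts per probe, which the authors left unnormalised, 1 lane per sample. The scaling factor of a lane was the geometric mean of its counts for 11 housekeeping probes, those of the 20 above background everywhere. edgeR 4.0.16 (R 4.3.3) gave quasi-likelihood tests for the 655 of 750 genes above background in at least 2 lanes, from a single fit to all 33 lanes with a mean for each of 13 groups (common dispersion 0.0406, 20 residual degrees of freedom), with Benjamini-Hochberg adjustment over all genes and a threshold of 0.05. The model was tested on simulated data. Alternatives changed the scaling, tool, filter, control group or samples in turn.

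All 8 members were named whatever their result. Of the other complement genes those called were named, and for each member above background in at least 20 lanes the 3 genes of highest Pearson r of log2(normalised count + 1). Members and lists were chosen with earlier results of these data known. Totals of 18056 to 466096 counts set the precision, and intervals come from the model.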

Additional observations from a re-analysis of the deposited data

Results flagged for a closer look

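C1qbp was marked for a closer look because its changes against vehicle ran in opposite directions for the 2 drugs on day 1 and for 2 days of ruxolitinib. On day 1 all 3 venetoclax mice were under both of their vehicle mice and all 3 ruxolitinib mice were above both of theirs, where 27.5% and 44% of all genes had groups that did not overlap. The vehicle mice were at 125 and 137 for venetoclax and at 79.7 and 99.6 for ruxolitinib, and the untreated mouse of that run was at 89.6. The difference between these changes was -1.33 on the log2 scale, and in edgeR's test it had an adjusted p = 0.0914. Within ruxolitinib, the day 1 mice were all above vehicle and the day 7 mice were all under it, and 17.7% of all genes had groups that did not overlap on day 7. With the 3 untreated mice as control, 1 from each run at 89.6, 111 and 246, the ruxolitinib changes were -0.07 on day 1 and 0.36 on day 7. The ruxolitinib mice of day 1 were all above, and those of day 7 all under, the untreated mouse of their own run. The day 7 change minus the day 1 change was -0.89, with an adjusted p = 0.418 by edgeR. Groups of 2 or 3 mice were not searched for outlying samples.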

How the results depend on the processing

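The number of members called stayed at 0 in the 15 planned comparisons under TMM, total count or all 20 housekeeping probes, DESeq2, limma and both filters. It was also 0 with both vehicles pooled, run for the 8 comparisons of drug with vehicle, and without the lanes under 30000 counts, run for the 7 comparisons that hold them. It moved to 2 for ruxolitinib on day 1 and to 1 for the difference between drugs on day 1 when only the groups compared were fitted (77 and 61 of all 655 genes called), and to 1 for ruxolitinib on day 7 with untreated mice as control (87 of 655). Across the alternatives, 3 to 77 of all genes were called for ruxolitinib on day 1, against 18 in the reported fit. For the mean of its 3 days 0 to 20 were called, against 8. Leaving out 1 mouse gave 0 members called in every planned comparison, and 4 in the added comparison of vehicle groups between runs.

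Of 112 values of a member in a comparison, 49 changed sign under at least 1 alternative and 48 when 1 mouse was left out. Of those the text gives, with untreated mice as control, values with a sign opposite to the reported one included C1qa on venetoclax day 3 (-0.18) and day 7 (1.01), C1qb on venetoclax day 3 (-0.36) and ruxolitinib day 1 (-0.0088), C1qbp on ruxolitinib day 1 (-0.070) and day 7 (0.36), and Cfp on venetoclax day 3 (-0.19). That control pools 1 mouse of each run, so 2 of its 3 mice are from other runs than the drug group, and these 4 genes were higher in run 3. For the comparison between runs, C3 turned to 0.0019 in a fit of only those groups and 0.24 with total count scaling, and C3ar1 to 0.14 with limma after background subtraction, 0.16 with limma and 0.19 with total count scaling. Without 1 vehicle mouse, C3 ranged from -0.10 to 0.074 and C3ar1 from -0.19 to 0.31. None of these values was called, and the cause was not tested. Total count scaling moved the median of all genes in that comparison from 0.14 to 0.38 and TMM to -0.04, and C1qa, C1qb, C1qbp and Cfp stayed called under both. After background subtraction Cfp lost its call there (1.05, SE 0.82, adjusted p = 0.435).

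Cd55 with venetoclax over the 3 days lost its call with untreated mice as control (-0.74, adjusted p = 0.122) and kept it without any 1 mouse. Whether replicate numbers pair the mice was not settled: same-numbered drug and vehicle mice correlated at -0.35 to 0.30, and over 0.1 in 4 of 12 pairs. With 2 mice in a vehicle group, their deviations from the group mean mirror each other, so these pairs are not independent. With the replicate number as a block, 0 members were called in the 15 comparisons and 4 in the added one, and Clu had an adjusted p = 0.0509. Low counts limit C3ar1, Cfd and Cfb.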
